A study of Mus musculus with 8 samples.

Results

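The genes described here are 7 of the 32285 genes of the deposited table: Mcpt8, Prss34, Cpa3, Hdc, Ms4a2, Fcer1a and Gzmb, listed by name as granule and IgE receptor genes of basophils and mast cells. They were read inside and outside a small set of cells, called gated cells, in which Prss34, Cpa3 and Hdc together made up at least 10 of every 10000 unique molecular identifiers (UMIs, each standing for 1 captured RNA molecule). The gate held 94 of 7761 kept cells with deoxycholic acid and 152 of 8479 with media alone, or 246 of 16240 in all. Because 3 of the 7 genes set the gate, their levels inside against outside it are a description of that choice.

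Mouse whole bone marrow was cultured on irradiated AFT024 embryonic liver fibroblasts in long-term medium with hydrocortisone. Deoxycholic acid, a secondary bile acid, was added at 35 µM for 1 week in the treated group, and the media control group had the medium alone for the same time. Both groups shared the feeder layer, the hydrocortisone and a sort for lineage-negative cells, and the sources used here give no strain, age or genotype of the mice. The labels list 4 samples a group, but whether their letters mark separate cell samples or parts of 1 library is not stated, and the names of cells tell the group and not the letter. Each group is therefore read as 1 library, no test was made, and every interval below covers counting error only.

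Basophils and mast cells store preformed mediators in granules and release them when antigen crosslinks IgE on the high-affinity receptor FceRI. In the mouse, Mcpt8 and Prss34 encode serine proteases used as basophil markers, Cpa3 encodes a carboxypeptidase of mast cell and basophil granules, and Hdc makes histamine from histidine. Fcer1a encodes the receptor chain that binds IgE, Ms4a2 encodes its signal-amplifying beta chain, and Gzmb encodes granzyme B, a protease better known from cytotoxic lymphocytes. Tags were counted at the 3' end of each RNA, so levels are given as UMIs of the gene per 1000000 UMIs summed over the cells named (CPM), without division by gene length.

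Before filtering, 8520 barcodes and 131341422 UMIs were deposited for deoxycholic acid, against 9346 barcodes and 183462851 UMIs for media. Gated cells were shallow, with medians of 4662 UMIs per cell with deoxycholic acid and 6124 in media, against 14519 with deoxycholic acid and 19000 in media in the other kept cells. The libraries shared 25 barcodes, of which 1 belonged to a kept gated cell. All 10 basophil markers of the list used were detected in the gated cells of both libraries, including the 4 that are not members, Cd200r3, Gata2, Il4 and Cyp11a1. Full detection was not particular to that list. All 8 eosinophil markers were detected there too, at 6864 CPM with deoxycholic acid and 6796 CPM in media, mostly from Prg2. Outside the gate they summed to 61.1 CPM with deoxycholic acid and 68.8 CPM in media. All 7 early progenitor markers were also detected in gated cells of both libraries. Of the 246 gated cells, 242 fell into 1 of the 15 clusters, cluster 12, led by Prg2, Prss34, Cpa3, Rgs1 and Mcpt8. That cluster had 319 cells, and 34 of its deoxycholic acid cells and 43 of its media cells were outside the gate. Of 12 mast cell markers, the tryptases Tpsb2 and Tpsab1, the chymases Mcpt4, Mcpt1 and Mcpt2, and Mrgprb1 and Rgs13 had no UMI in any gated cell. The list summed to 491 CPM there with deoxycholic acid and 538 CPM in media, from 5 detected genes with deoxycholic acid and 4 in media. Most of this was Gata2, which is also on the basophil list, at 357 CPM with deoxycholic acid and 424 CPM in media. Kit had 83.8 CPM with deoxycholic acid and 50.1 CPM in media, and Cma1 had 44.1 and 56.1 CPM in those libraries. Of 9 markers of natural killer and cytotoxic T cells, Gzma, Klrd1, Klrb1c, Ncr1, Cd3e and Cd8a were at 0 in gated cells. Nkg7 had 153 CPM with deoxycholic acid and 143 CPM in media in gated cells. Outside the gate it had 100 CPM with deoxycholic acid and 127 CPM in media. Prf1 had 1 UMI in gated media cells, and Ccl5 had 5 UMIs in gated deoxycholic acid cells.

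Gated cells were a smaller share of the deoxycholic acid library: 1.21% (exact 95% interval 0.980 to 1.48) against 1.79% (1.52 to 2.10) in media, a ratio of 0.676 (0.517 to 0.880). The gate is a range on a score, not a sharp type, yet few cells lay near its edge. Between 5 and 10 UMIs per 10000, just outside, there were 9 cells with deoxycholic acid and 12 in media, and between 10 and 15, just inside, 9 with deoxycholic acid and 11 in media. In the bands just inside, Prss34 had 18 UMIs in 2 of the deoxycholic acid cells and 1 UMI in 1 of the media cells. After every cell was thinned to 5000 UMIs, and shallower cells left out, the gate held 48 of 7113 cells with deoxycholic acid and 104 of 7818 in media, a ratio of 0.507 (0.353 to 0.721). That depth left out 48 of the 94 gated deoxycholic acid cells and 50 of the 152 gated media cells. Thinned to 2000 UMIs, the gate held 93 of 7649 cells with deoxycholic acid and 141 of 8353 in media, a ratio of 0.720 (0.548 to 0.942). The lineage sort can also set these shares, and its part in the difference was not tested.

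**Figure D1:**
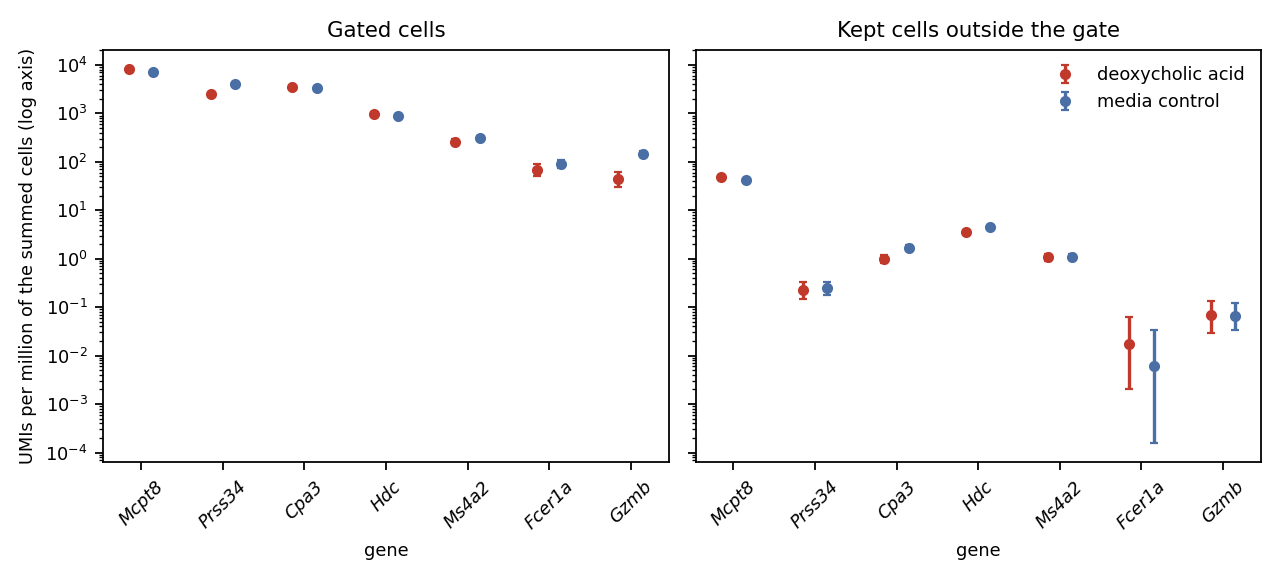
CPM (log axis) of the 7 genes in gated cells and in the other kept cells, summed over cells, with deoxycholic acid in red left of media control in blue; bars are exact Poisson 95% intervals. Outside the gate, Mcpt8 stood at 49.2 CPM with deoxycholic acid and 42.8 CPM in media. The gate gene Prss34 stood there at 0.222 CPM with deoxycholic acid and 0.249 CPM in media.

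Among the granule proteases, Mcpt8 reached 8051 CPM (95% interval 7840 to 8268) in gated deoxycholic acid cells and 7093 CPM (6951 to 7238) in gated media cells. Prss34 went the other way, with 2549 CPM (2430 to 2672) with deoxycholic acid and 4050 CPM (3943 to 4160) in media. The sum was slightly higher for Mcpt8 and lower for Prss34 with deoxycholic acid. The log2 ratio of deoxycholic acid over media was 0.18 (0.13 to 0.23) for Mcpt8 and -0.67 (-0.75 to -0.59) for Prss34. Past a log2 ratio of 0.5 either way, 2 of the 7 genes differed between the gated sums, Prss34 and Gzmb, both lower. Of the 2696 genes tested there, 17.1% passed that fold, 5.04% higher and 12.1% lower.

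Prss34 was uneven from cell to cell, and it helps to set the gate, which bears on its share and level among gated cells. A UMI of it was seen in 52 of 94 gated deoxycholic acid cells (55.3%) and 98 of 152 gated media cells (64.5%), and the 5 richest cells held 46.5% of its gated UMIs with deoxycholic acid against 21.0% in media. Its median over gated cells was 3.18 UMIs per 10000 with deoxycholic acid and 10.9 in media, while the upper quartile was 24.5 with deoxycholic acid and 70.7 in media. Mcpt8 was seen in more of the gated cells, in 87 with deoxycholic acid and 137 in media, with a median over all gated cells of 44.2 UMIs per 10000 with deoxycholic acid and 51.0 in media. The median of Mcpt8 was lower with deoxycholic acid although its sum was higher, and the top of its range reached 633 UMIs per 10000 in a deoxycholic acid cell and 303 in a media cell. The size of the Prss34 difference depended on which gated cells were summed: the log2 ratio was -0.16 with a gate of 50 UMIs per 10000, -0.34 in cells thinned to 5000 UMIs and -0.36 with Cpa3 left out of the gate. For Mcpt8 the ratio was 0.71 with the gate of 50, 0.46 with Cpa3 left out of the gate and 0.36 as a mean over cells.

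Cpa3, the carboxypeptidase, and Hdc, the histamine-forming enzyme, both set the gate, which bears on how many gated cells hold them. Cpa3 was seen in 91 of 94 deoxycholic acid cells and 147 of 152 media cells, with a median of 30.4 UMIs per 10000 with deoxycholic acid and 29.6 in media, and up to 292 in a deoxycholic acid cell and 89.4 in a media cell. Its gated sums were 3436 CPM with deoxycholic acid and 3273 CPM in media, a log2 ratio of 0.07 (-0.003 to 0.14). Hdc had 973 CPM (900 to 1050) with deoxycholic acid and 900 CPM (850 to 952) in media, in 91 deoxycholic acid and 145 media cells, with a log2 ratio of 0.11 (-0.03 to 0.25). Both ratios had intervals that reached 0, and cells thinned to 5000 UMIs gave -0.072 for Cpa3 and -0.15 for Hdc.

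**Figure D2:**
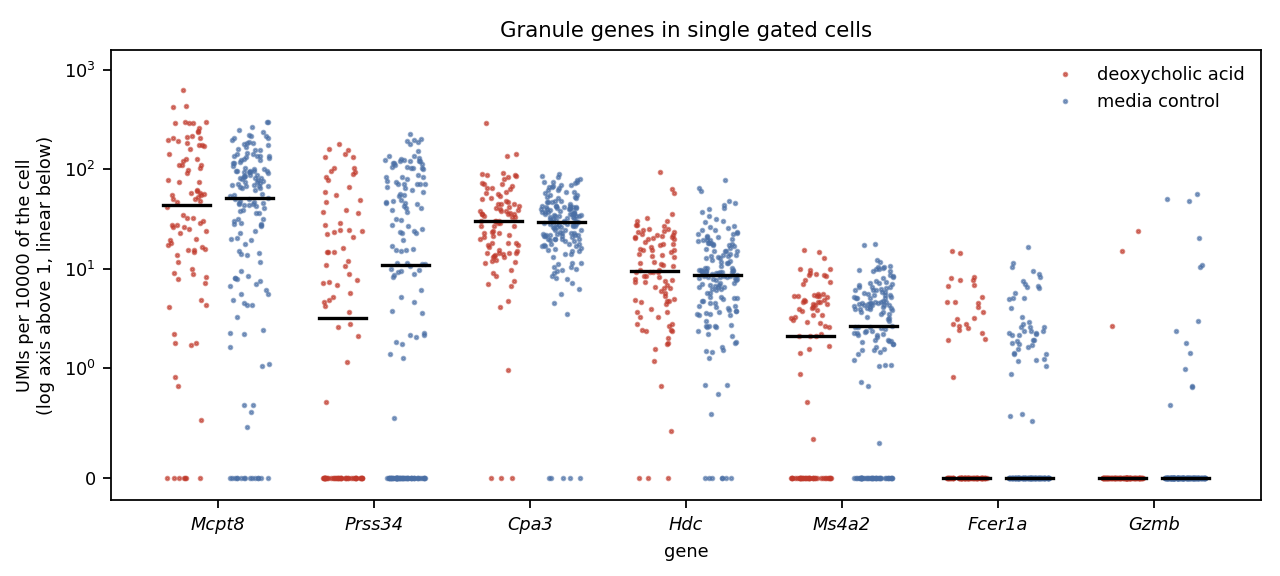
Each point is 1 gated cell, 94 with deoxycholic acid (red, left) and 152 in media (blue, right), at its UMIs per 10000 of each gene (log axis above 1); black lines are medians. Cpa3, a gate gene, has medians of 30.4 with deoxycholic acid and 29.6 in media, Prss34 is spread from 0 to above 100, and Gzmb is at 0 in nearly all cells.

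The start regions of Mcpt8, Prss34 and Cpa3 are shown, 1 member that was abundant outside the gate and 2 that were not. Prss34 and Cpa3 help to set the gate, which bears on their level outside it, and the size of that part was not tested. Any link between the letters below and these levels was not tested. The windows run from 250 bases before to 50 bases after the gene start (RefSeq, GRCm38.p6). Capitals mark AGATAA, a form of the GATA factor site, and TGTGGT, a form of the RUNX site, on either strand (TTATCT and ACCACA on the other). Other forms of these sites were not searched for, so a window without a match can still hold one. The 2 motifs do not overlap in these windows.
Mcpt8, chr14:56085148-56085447, minus strand: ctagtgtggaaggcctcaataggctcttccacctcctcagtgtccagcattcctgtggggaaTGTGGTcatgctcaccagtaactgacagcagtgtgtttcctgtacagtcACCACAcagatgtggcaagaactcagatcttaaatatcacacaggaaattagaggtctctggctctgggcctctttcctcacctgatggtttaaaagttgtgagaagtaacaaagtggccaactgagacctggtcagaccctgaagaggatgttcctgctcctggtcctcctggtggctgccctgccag
Prss34, chr17:25298144-25298443, plus strand: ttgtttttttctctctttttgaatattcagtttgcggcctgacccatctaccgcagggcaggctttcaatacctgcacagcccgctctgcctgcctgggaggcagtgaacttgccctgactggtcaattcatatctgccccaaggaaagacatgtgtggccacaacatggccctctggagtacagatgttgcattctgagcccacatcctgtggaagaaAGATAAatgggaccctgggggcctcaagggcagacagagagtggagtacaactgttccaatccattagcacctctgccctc
Cpa3, chr3:20242132-20242431, minus strand: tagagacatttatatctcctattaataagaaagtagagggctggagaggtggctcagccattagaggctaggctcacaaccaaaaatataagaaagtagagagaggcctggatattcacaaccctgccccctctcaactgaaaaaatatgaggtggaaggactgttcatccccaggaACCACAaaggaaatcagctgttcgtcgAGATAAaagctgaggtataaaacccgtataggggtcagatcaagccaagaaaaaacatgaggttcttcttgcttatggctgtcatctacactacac
The Prss34 window held AGATAA from 31 bases before the start, and the Cpa3 window held it from 46 bases before, with ACCACA from 73 bases before. The Mcpt8 window held TGTGGT from 188 and ACCACA from 139 bases before the start and no AGATAA. Over the 7 members, AGATAA was found in the windows of Prss34, Cpa3, Ms4a2 and Fcer1a, 4 of 7, against 11.2% of all 32851 windows in the table. TGTGGT was found in those of Mcpt8, Cpa3, Fcer1a and Gzmb, 4 of 7, against 16.8% of all windows. These are letter matches within a window and no site was measured. Gata2, which encodes a GATA factor needed in mouse basophils and mast cells, had 357 CPM in gated deoxycholic acid cells and 424 CPM in gated media cells, against 0.760 CPM with deoxycholic acid and 1.11 CPM in media outside the gate.

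The receptor genes were sparse. Ms4a2, the beta chain, was seen in 55 of 94 gated deoxycholic acid cells and 110 of 152 gated media cells, at 259 CPM (222 to 300) with deoxycholic acid and 305 CPM (276 to 336) in media. Its log2 ratio was -0.24 (-0.50 to 0.02). Fcer1a, the IgE-binding alpha chain, was seen in 25 deoxycholic acid and 49 media cells of the gate, at 69.1 CPM (50.8 to 91.9) with deoxycholic acid and 91.2 CPM (75.8 to 109) in media, with a log2 ratio of -0.40 (-0.92 to 0.10). In no gated cell did Fcer1a exceed 9 UMIs, and these depths did not resolve a difference in either chain. Fcer1g, the gamma chain that several Fc receptors share, had 1620 CPM with deoxycholic acid and 1919 CPM in media, a log2 ratio of -0.24 (-0.35 to -0.14).

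Gzmb was carried by a few cells. It was found in 3 of 94 gated deoxycholic acid cells, with 18, 11 and 1 UMIs, and in 14 of 152 gated media cells, of which the top 5 held 55, 48, 38, 20 and 10 UMIs. The sums were 44.1 CPM (29.7 to 63.0) with deoxycholic acid and 143 CPM (123 to 165) in media, a log2 ratio of -1.70 (-2.30 to -1.13) that rests on this handful of cells. The 3 richest media cells had 0, 1 and 0 UMIs of Mcpt8 and no Prss34 UMI, with 10, 86 and 5 UMIs of Cpa3. The richest deoxycholic acid cell likewise had no Prss34 UMI and 15 of Mcpt8, with 27 of Cpa3. Cma1, a chymase gene of mouse connective tissue mast cells, had 12 UMIs in that deoxycholic acid cell, beside 14 of the stem cell factor receptor gene Kit, and 73 UMIs in 1 of those media cells, beside 13 of Kit. In gated cells with Prss34 UMIs the Gzmb ratio turned to 0.42, and with a gate of 50 UMIs per 10000 it was -0.062. It was -0.027 with Cpa3 left out of the gate and -2.52 without the richest cell of each library.

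**Figure D3:**
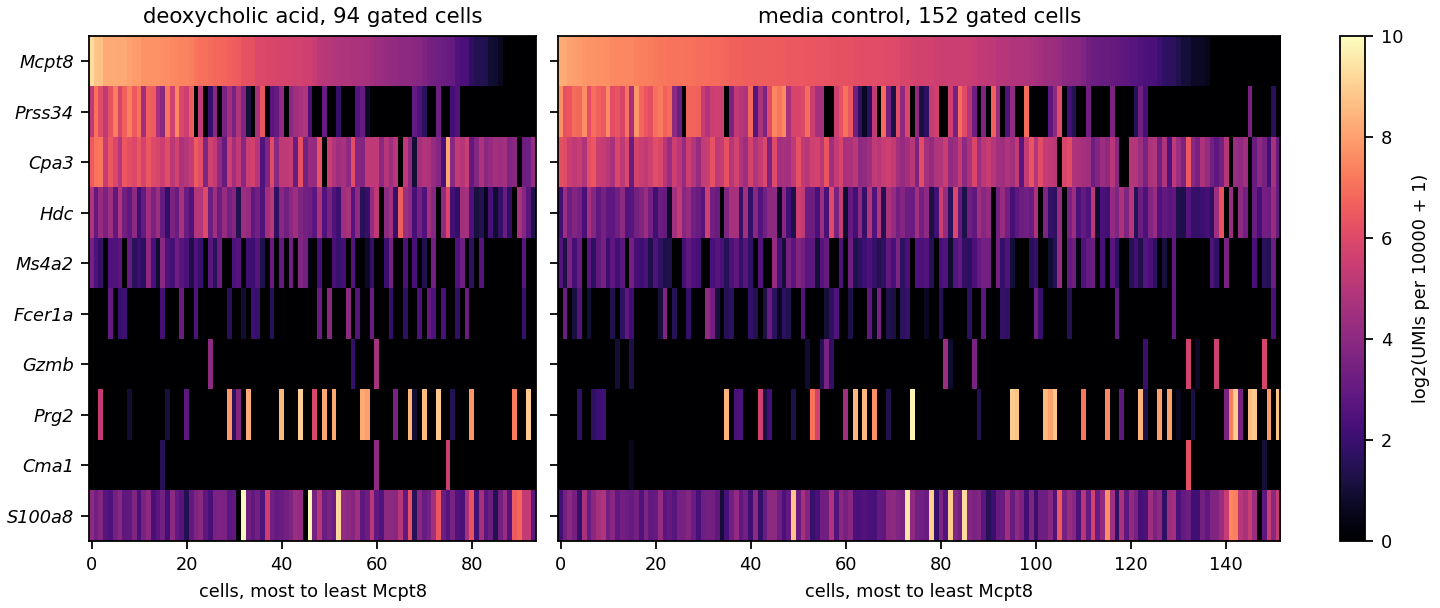
Each column is 1 gated cell, ordered by Mcpt8, with 94 deoxycholic acid cells at the left and 152 media cells at the right; colour is log2(UMIs per 10000 + 1). Prss34 follows Mcpt8 across cells, the gate gene Cpa3 is present nearly throughout, and Gzmb, Prg2, Cma1 and S100a8 are each high in few columns.

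Across gated cells, Mcpt8 and Prss34 tracked each other, with Spearman's rho of 0.78 over 94 deoxycholic acid cells and 0.76 over 152 media cells, and Mcpt8 with Cpa3 gave 0.58 with deoxycholic acid and 0.55 in media. Prss34 and Cpa3 also set the gate, cells of 1 library share their depth and their source, and the values are descriptions. Prg2, the gene of eosinophil major basic protein, was at or above 10 UMIs per 10000 in 18 gated deoxycholic acid cells and 27 gated media cells. Those cells held less Mcpt8, at 4459 CPM with deoxycholic acid and 4012 CPM in media, than the other gated cells, at 9054 CPM with deoxycholic acid and 7872 CPM in media. Prss34 in them was 802 CPM with deoxycholic acid and 1672 CPM in media, against 3037 and 4651 CPM in the other gated cells of those libraries. They had no Gzmb UMI, and 1 UMI of Fcer1a with deoxycholic acid and 2 in media. Cpa3 was nearer between these sets of cells. At or above that Prg2 level it had 3058 CPM with deoxycholic acid and 2859 CPM in media, against 3541 and 3378 CPM below it. Epx, eosinophil peroxidase, had 344 CPM with deoxycholic acid and 386 CPM in media in the cells at or above that Prg2 level.

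Transcripts of neutrophil precursors were also present in gated cells. The 7 immature neutrophil markers summed to 4697 CPM in gated deoxycholic acid cells and 3056 CPM in gated media cells, all 7 of them detected in both, against 36377 CPM with deoxycholic acid and 34983 CPM in media outside the gate. S100a8, an alarmin gene of neutrophils, was at 100 UMIs per 10000 or more in 4 gated deoxycholic acid cells, of median depth 19576 UMIs, and 8 gated media cells, of median depth 13614 UMIs. Without those cells the log2 ratio of Prss34 was -0.51, and the part of these transcripts in the other results was not tested.

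Outside the gate, Mcpt8 was the only member above 5 CPM. It summed to 49.2 CPM (47.9 to 50.5) over 7667 deoxycholic acid cells and 42.8 CPM (41.8 to 43.8) over 8327 media cells, a log2 ratio of 0.20 (0.15 to 0.25). At least 1 UMI was seen in 2039 deoxycholic acid cells (26.6%) and 2355 media cells (28.3%), and after thinning to 5000 UMIs in 12.4% (11.7 to 13.2) of deoxycholic acid cells and 11.6% (10.9 to 12.3) of media cells. Mcpt8 was the 1 member past the level filter there, and it was not past a log2 ratio of 0.5; of the 4659 genes tested 4.72% were, 1.72% higher and 3% lower. Of all Mcpt8 UMIs, 48.7% lay in gated cells with deoxycholic acid and 57.4% in media. For Prss34 the shares were 98.5% with deoxycholic acid and 99.2% in media, but Prss34 sets the gate and Mcpt8 does not.

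Outside the gate, Mcpt8 was higher in progenitor-like clusters than in neutrophil-like ones. In the 2 clusters called granulocyte-monocyte progenitor-like, both led by Mpo, Fkbp11 and Ctsg, Mcpt8 stood at 94.6 CPM with deoxycholic acid and 69.3 CPM in media in cluster 2. In cluster 4 it stood at 110 CPM with deoxycholic acid and 106 CPM in media. The monocyte-like cluster 11, led by Vcan, S100a4 and Spp1, had 92.3 CPM with deoxycholic acid and 81.9 CPM in media. The mature neutrophil-like cluster 6 had 2.13 CPM with deoxycholic acid and 2.01 CPM in media, and the immature neutrophil-like clusters 1, 3, 7 and 8 had 1.13 to 6.47 CPM over both libraries. The immature neutrophil-like cluster 10 had more, with 20.2 CPM with deoxycholic acid and 17.1 CPM in media, and 9.98% of its thinned deoxycholic acid cells and 8.69% of its thinned media cells held a UMI. After thinning to 5000 UMIs, 25.5% of deoxycholic acid cells and 24.9% of media cells of cluster 2 kept a Mcpt8 UMI, and 27.6% of deoxycholic acid and 27.8% of media cells of cluster 4. In cluster 6, 1.52% of deoxycholic acid cells and 1.21% of media cells did. Median depths were 20199 UMIs with deoxycholic acid and 27095 in media in cluster 2, and 4911 UMIs with deoxycholic acid and 5719 in media in cluster 6. Gated cells held 3.16 Mcpt8 UMIs per Prss34 UMI with deoxycholic acid and 1.75 in media. Cells outside the gate held 222 with deoxycholic acid and 172 in media. Prss34 is a gate gene, so the gate caps its level in cells outside. Its sums there, 0.222 CPM with deoxycholic acid and 0.249 CPM in media, lay far below that cap. The part of the gate in the rise of this ratio was not tested.

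**Figure D4:**
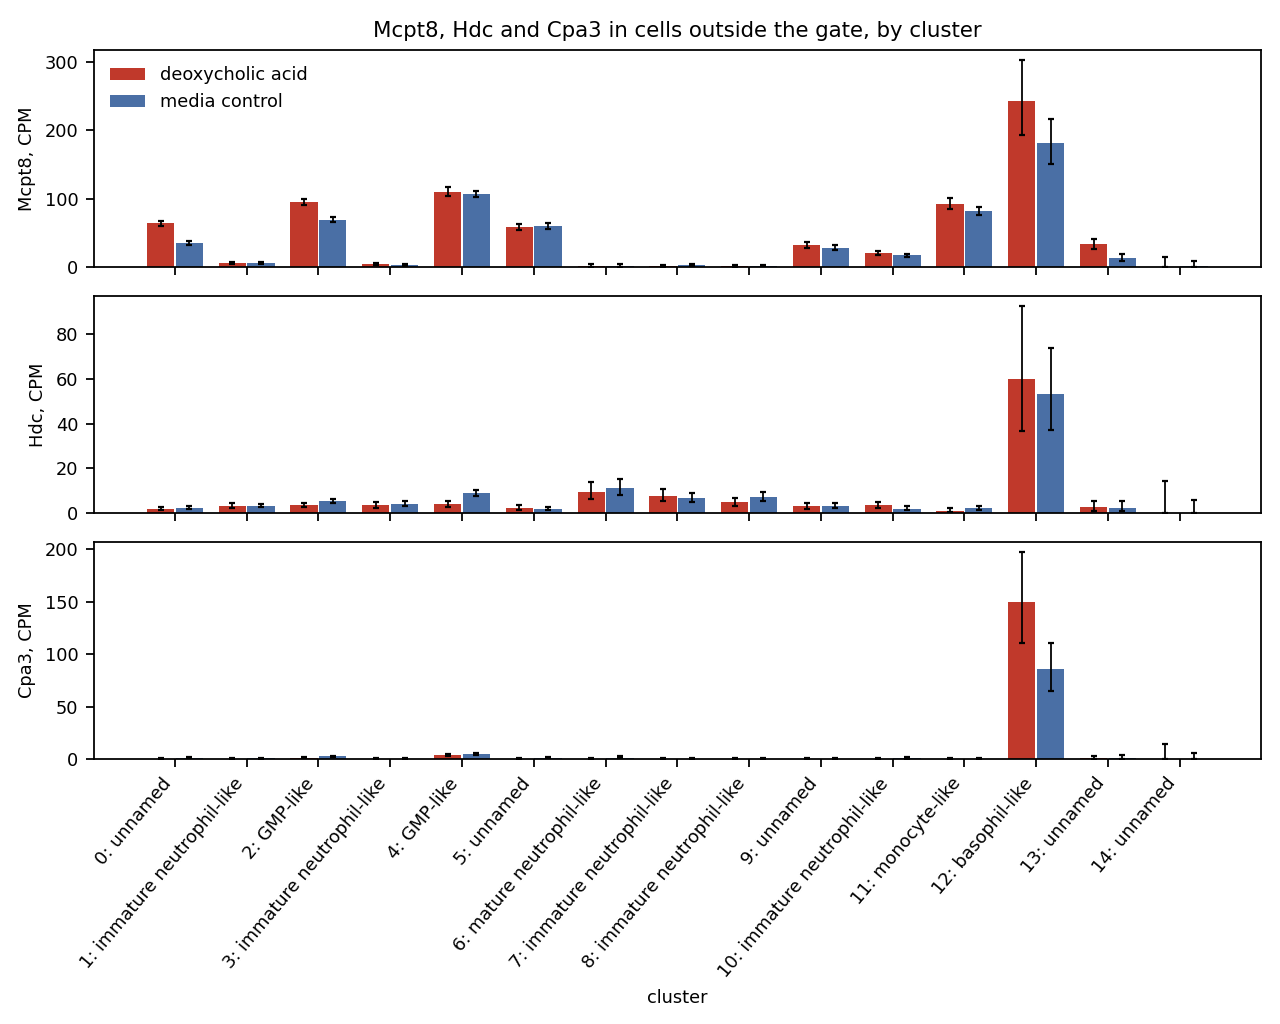
Bars are CPM of Mcpt8, Hdc and Cpa3 summed over the cells outside the gate of each cluster (deoxycholic acid red, left; media blue, right), with exact Poisson 95% intervals; GMP is granulocyte-monocyte progenitor. Besides cluster 12, Mcpt8 is highest in clusters 2, 4 and 11, Hdc in the mature neutrophil-like cluster 6, and Cpa3 in cluster 4, at 3.51 CPM with deoxycholic acid and 4.51 CPM in media.

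The difference between libraries was uneven over these clusters. In cluster 2 the log2 ratio of Mcpt8 was 0.45 (0.35 to 0.55), while in cluster 4 it was 0.05 (-0.06 to 0.15). In the unnamed cluster 0, led by Stfa1 and histone genes, Mcpt8 had 64.0 CPM in 984 deoxycholic acid cells and 35.1 CPM in 985 media cells, a log2 ratio of 0.87 (0.74 to 0.99), with 18.8% (16.4 to 21.4) of thinned deoxycholic acid cells and 13.8% (11.7 to 16.1) of thinned media cells positive. In the unnamed cluster 13, led by Ankrd37 and Bnip3, it had 33.3 CPM from 90 UMIs with deoxycholic acid and 13.3 CPM from 29 UMIs in media, a log2 ratio of 1.33 (0.71 to 1.98), and 1 deoxycholic acid cell held 31 of the 90. The unnamed cluster 5, led by Stfa1, F7 and Cdc6, had 58.2 CPM with deoxycholic acid and 60.3 CPM in media. The difference between these ratios was not tested.

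A few cells outside the gate had a high share of Mcpt8. At or above 10 UMIs of Mcpt8 per 10000 there were 21 deoxycholic acid cells and 22 media cells outside the gate, with a median of 33 Mcpt8 UMIs, and up to 66, with deoxycholic acid and a median of 52, and up to 80, in media. Of these, 1 deoxycholic acid cell and 3 media cells were so shallow that 1 UMI reached this level, and the lowest Mcpt8 count was 1 in both libraries. The cells of this set held no Prss34 UMI, which allows up to 7.84 CPM with deoxycholic acid and 6.13 CPM in media (exact Poisson 95% bounds). By the gate's rule, cells outside it hold fewer than 10 UMIs per 10000 of Prss34, Cpa3 and Hdc together, which bears on these counts. In each library the cells of this set held 5 Cpa3 UMIs and 2 Gata2 UMIs. Mpo, the gene of myeloperoxidase of primary granules, had 1823 CPM in 19 of the deoxycholic acid cells and 1606 CPM in 21 of the media cells. Elane, neutrophil elastase of the same granules, had 4101 CPM with deoxycholic acid and 3342 CPM in media. Of the deoxycholic acid cells, 5 were in cluster 2, 4 in cluster 4, 4 in cluster 0, 3 in cluster 11, 2 in the basophil-like cluster 12 and 1 in each of clusters 5, 9 and 13. Of the media cells, 6 were in cluster 4, 5 in cluster 5, 3 in each of clusters 2, 9 and 11, and 1 in each of clusters 0 and 12. The median cell of this set had 22019 UMIs with deoxycholic acid and 29149 in media, against 4662 with deoxycholic acid and 6124 in media in gated cells.

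The other members left traces outside the gate. Prss34 had 26 UMIs with deoxycholic acid and 41 in media there, never more than 1 in a cell. Cpa3 had 1.01 CPM (0.834 to 1.21) with deoxycholic acid and 1.70 CPM (1.502 to 1.91) in media, a log2 ratio of -0.75 (-1.07 to -0.43). It stood on 118 UMIs with deoxycholic acid, 40.7% of them in 5 cells, and 279 in media, 33.0% of them in 5 cells. This Cpa3 ratio joined opposite signs. In the basophil-like cluster, cells outside the gate held 50 of these UMIs with deoxycholic acid and 58 in media. Of those, 70.0% with deoxycholic acid and 63.8% in media lay in 5 cells. The Cpa3 log2 ratio there was 0.80 (0.23 to 1.37). In the other cells outside the gate it was -1.21 (-1.62 to -0.81). Hdc had 3.51 CPM in 333 deoxycholic acid cells and 4.56 CPM in 536 media cells, a log2 ratio of -0.38 (-0.55 to -0.20). In the mature neutrophil-like cluster 6 it stood at 9.59 CPM with deoxycholic acid and 11.3 CPM in media, above every cluster but the basophil-like one. In cluster 4, Hdc was 3.90 CPM with deoxycholic acid and 8.80 CPM in media, a log2 ratio of -1.17 (-1.71 to -0.67). Ms4a2 had 1.07 CPM with deoxycholic acid and 1.08 CPM in media. Fcer1a had 2 UMIs with deoxycholic acid and 1 in media, and Gzmb 8 with deoxycholic acid and 11 in media. All of the deoxycholic acid UMIs of both genes, and 5 of the 11 Gzmb UMIs in media, lay in the basophil-like cluster 12.

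**Figure D5:**
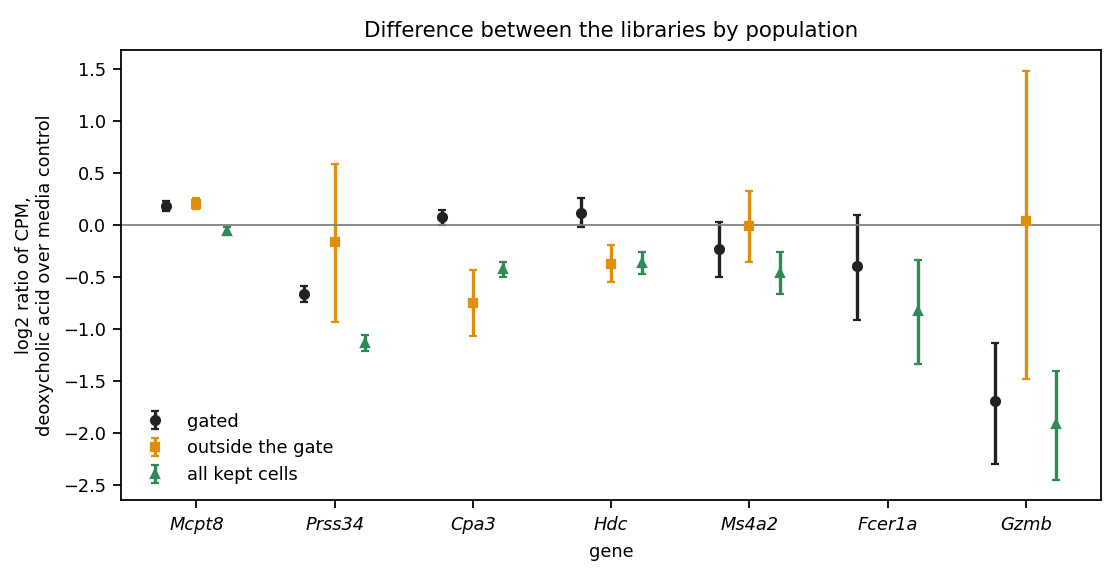
Log2 ratios of deoxycholic acid over media control for each gene in gated cells, in the other kept cells and in all kept cells, with exact 95% intervals for counting error; Fcer1a outside the gate is left out, with too few UMIs for a ratio. Prss34 and Gzmb lie below 0 in gated cells, at -0.67 and -1.70. Mcpt8 lies near 0.2 in gated cells and in the other kept cells, and at -0.06 in all kept cells.

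Over all kept cells, where the share of gated cells and the level within them add up, Prss34 was 14.95 CPM with deoxycholic acid and 32.9 CPM in media, a log2 ratio of -1.14 (-1.22 to -1.06). Mcpt8 was 95.5 CPM with deoxycholic acid and 99.6 CPM in media, a log2 ratio of -0.06 (-0.10 to -0.03). Cpa3 was 20.9 CPM with deoxycholic acid and 28.1 CPM in media, a log2 ratio of -0.43 (-0.50 to -0.36). Of these 3 members past the level filter, 1 was past a log2 ratio of 0.5, against 4.75% of 4670 genes, 1.69% higher and 3.06% lower.

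Other genes of the same pathways were read from lists, for genes at 5 CPM or more in the gated sums of a library, and set beside all 9202 genes at that level. Of these, 52.5% were higher and 47.5% lower with deoxycholic acid, 37.2% were past a log2 ratio of 0.5, 20.8% higher and 16.4% lower, and the median was 0.03. Among the 2696 more abundant genes given above, the median was -0.10, close to the medians of several lists below. Of 18 measured genes of FceRI signalling, 11 were higher and 7 lower with deoxycholic acid, with 1 past 0.5 higher and 2 lower and a median of 0.11; its leading genes after Fcer1g were the adaptor gene Lat2 and the kinase genes Lyn and Btk. With deoxycholic acid they had 157, 100 and 109 CPM, and in media 144, 94.98 and 83.8 CPM. Of 17 genes of granule packing and release, 5 were higher and 12 lower, 2 of them past 0.5, with a median of -0.15. Srgn, the serglycin core protein that binds proteases in granules, had 3519 CPM with deoxycholic acid and 4370 CPM in media, a log2 ratio of -0.31 (-0.38 to -0.24). The protease inhibitor gene Serpinb1a, the vesicle fusion gene Vamp8 and Cst7, the gene of cystatin F, had 573, 348 and 147 CPM with deoxycholic acid and 680, 399 and 171 CPM in media. For histamine handling only Hdc and Slc18a2, the vesicular monoamine transporter, were measured, with Slc18a2 at 60.3 CPM with deoxycholic acid and 77.0 CPM in media.

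Of 24 genes for basophil cytokines, eicosanoids and receptors, 9 were higher and 15 lower, with 4 past 0.5 each way and a median of -0.10. The chemokine genes Ccl3 and Ccl4 were among the lower: Ccl3 had 1655 CPM with deoxycholic acid and 3368 CPM in media, a log2 ratio of -1.02 (-1.12 to -0.93), and Ccl4 had 1147 CPM with deoxycholic acid and 1883 CPM in media, a ratio of -0.72 (-0.83 to -0.60). Alox5ap, which helps leukotriene synthesis, had 1330 CPM with deoxycholic acid and 1557 CPM in media, and Lilrb4a, an inhibitory receptor, 831 CPM with deoxycholic acid and 741 CPM in media. Of 15 serine proteases of the chymase locus on chromosome 14, where Mcpt8 lies next to Ctsg, 4 were measured. Ctsg, cathepsin G, had 1541 CPM with deoxycholic acid and 2371 CPM in media in gated cells, a log2 ratio of -0.62 (-0.72 to -0.52), and 1467 CPM with deoxycholic acid and 2146 CPM in media outside the gate, at -0.55. Its neighbour Mcpt8 had the opposite sign in both populations. Of 17 transcription factor genes, 6 were higher and 11 lower, with a median of -0.12. After Gata2 the leading ones were Lmo4, Spi1 and Ikzf2, with 316, 144 and 125 CPM with deoxycholic acid and 274, 156 and 155 CPM in media.

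Among single genes of the gated sums, the largest positive log2 ratios were those of Bnip3 (1.97), Klf4 (1.77), Cybb (1.49), Gpr141 (1.42) and the neutrophil granule gene Ngp (1.25), followed by Nfam1, Ppp6r1, Klf10, Gm10076 and Adgre5. The largest negative ones were those of Cxcl3 (-2.39), Med30 (-2.35), Stfa3 (-2.22), Pdcl3 (-2.08) and Stfa2 (-2.00), followed by Cdk2ap1, Gzmb, 1190007I07Rik, Defb40 and Psmg3. Cxcl3 rested on 6 UMIs with deoxycholic acid and 62 in media, and Bnip3 on 72 with deoxycholic acid and 36 in media. Gated over outside, leaving the gate genes aside, the genes furthest apart were Prg2, Rgs1, Mcpt8, Ccl4, Egr1, Ccl3, Prg3, Gata2, Furin and Cxcl2, with Mcpt8 164-fold higher in gated deoxycholic acid cells and 166-fold in gated media cells.

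Likeness between genes was read as Pearson's r of log2(CPM + 10) over 30 sums, 15 clusters in 2 libraries, which share their libraries and turn on the single basophil-like cluster. Prss34 was most like Cpa3 (0.995) and Rnase12 (0.995), and Cpa3 most like Prg3 (0.997). Hdc was most like Acod1 (0.989), Ms4a2 most like Atp8b5 (0.998), Fcer1a most like Grm6 (0.9996), and Gzmb most like Defb40 (0.998). The gene most like Mcpt8 was Ccl9, at 0.967. Over the 28 sums without the basophil-like cluster, the genes nearest Mcpt8 included Bcap29 (0.978), Chordc1 (0.974), Erp29 (0.973) and Ctsg (0.962). Within cluster 2, where shares of cells were thinned to 5000 UMIs, the gene that differed most between cells with and without Mcpt8 was Ik, by 12.8 percentage points on average over the libraries. It was seen in 59.0% of deoxycholic acid cells with Mcpt8 and 43.8% without, and in 47.8% and 37.5% of such media cells. Ik was picked as the largest difference among the genes compared, over 195 deoxycholic acid and 186 media cells with Mcpt8. No interval was formed for it. The next gene, Atp2a2, differed by 10.8 points, and the largest difference the other way was Ccnd3 at -9.66 points.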

How the data were processed

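Whole-number UMI counts for each gene in each cell were deposited as one table, without scaling. The labels' protocols name the 10x Genomics 3' kit, and Cell Ranger 6.0 appears in the submitters' processing notes; no genome build and no cell filter of theirs is stated in the sources used here. A cell's name tells its group but not its sample, so the 4 lettered samples of each group were read as 1 library. The members, gene lists and rules were chosen with earlier results of these data known.

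Cells were kept with at least 300 genes and at most 10% mitochondrial UMIs. Scrublet (in scanpy 1.11.5) marked almost no doublets by its automatic threshold, so the 6% of barcodes with the highest scores were removed from each library. Kept cells were clustered (2000 variable genes, 30 components, leidenalg 0.10.2) and named from a marker list. Counts were summed per library and population and scaled to CPM. Ratios have exact conditional binomial 95% intervals, CPM exact Poisson and shares exact binomial ones; all cover counting error only. A 0 against more than 3 counts was set to 3, and no ratio was formed where both libraries held 3 or fewer. Genes tested for size reached 20 CPM and 50 UMIs in whichever library was higher. Named genes were the 7 members, the leading genes of each list, the largest ratios inside the gate, and the genes most like a member. Alternatives were other gates, thinning, edgeR 4.0.16 TMM factors, DESeq2 median-of-ratios factors, and other cell filters. Sequences are from RefSeq (GRCm38.p6), with all 7 members matched by symbol.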

Additional observations from a re-analysis of the deposited data

Results flagged for a closer look

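Among barcodes the report leaves out, 16 with deoxycholic acid and 25 in media passed the same gate, so signal of these genes also lies outside the kept cells. The doublet score removed 13 of them with deoxycholic acid and 20 in media. That was 12.1% of the gated deoxycholic acid barcodes and 11.6% of the gated media barcodes that passed the other filters, against 6.73% and 6.44% of all barcodes of those libraries that did. The median depth of those removed by the score was 18963 UMIs with deoxycholic acid and 14946 UMIs in media, above that of the gated cells kept. With all barcodes counted, gated ones were 1.29% of 8520 with deoxycholic acid and 1.89% of 9346 in media.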

How the results depend on the processing

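No paired analysis was possible because cell names do not give the lettered sample, and no lettered sample could be left out for the same reason. Values are log2 ratios of deoxycholic acid over media. The share of gated cells kept its direction under all 10 alternatives (-0.98 to -0.47), with -0.98 after thinning to 5000 UMIs. Gated Mcpt8 stayed above 0 in 17 settings: 0.11 with TMM factors, 0.36 as a mean over cells, 0.12 without doublet removal, 0.12 over all barcodes, 0.25 with a gate of 20 UMIs per 10000, 0.71 with 50, 0.46 without Cpa3 in the gate and 0.31 in cells with Prss34. Gated Prss34 stayed below 0: -0.77 without its top cells, -0.77 without doublet removal, -0.76 over all barcodes, -0.34 thinned, -0.16 with the gate of 50, -0.36 without Cpa3 in the gate, -0.51 without cells rich in S100a8 and -0.51 in cells with Prss34. Cpa3 was 0.25 as a mean over cells, -0.072 thinned, 0.46 with the gate of 50 and 0.28 without Cpa3 in the gate. Hdc was -0.15, 0.52 and 0.43 in the last 3 of these settings. Ms4a2 was 0.25 with the gate of 50. Fcer1a was 0.16 as a mean over cells, -1.74 thinned and -1.28 in cells with Prss34. Gzmb was -2.52 without its top cells, -0.91 thinned, -1.07 with the gate of 20, -0.062 with 50, -0.027 without Cpa3 in the gate and 0.42, reversed, in cells with Prss34. Outside the gate Mcpt8 stayed above 0 in 14 settings: 0.14 with DESeq2 factors, 0.14 with TMM factors and 0.15 with the gate of 50. The share of Mcpt8-bearing cells there was -0.18 at 3 UMIs or more and 0.10 thinned, so its sign was not fixed. Genes past 0.5 in gated cells numbered 462, 3835 with no minimum, and 184 at 50 CPM and 100 UMIs. The cause of these shifts was not tested. Settings on S100a8, Prss34 and Prg2 in gated cells and on 2000 UMIs were chosen after seeing the data. Depth limits Fcer1a, with 47 gated UMIs with deoxycholic acid and 122 in media, and the Gzmb ratio rests on few cells.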
